A study of Homo sapiens with 40 samples.

Results

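The cytosolic sulfotransferases of HepaRG liver cells were followed through exposure to PCB 126, glyphosate and Roundup. The family was taken by gene name: SULT1A1, SULT1A2, SULT1B1, SULT1C2, SULT1C4, SULT1E1 and SULT2A1, 7 of the 56568 gene names in the expression tables, with 35 of the 234960 transcripts. Each value is the FPKM (fragments mapped to a transcript, scaled to its length and to the library's total) summed over the transcripts that carry the gene name. HepaRG (HPR 116) is a hepatic cell line used here in its terminally differentiated state, in which hepatocyte-like colonies lie among primitive biliary cells. All cultures were kept from day 8 to day 14 in a medium with 2% fetal bovine serum and 1% DMSO. There were 8 groups of 5 libraries, 40 in all. The control received solvent. PCB 126, a coplanar chlorinated biphenyl and ligand of the aryl hydrocarbon receptor, was given at 100 pM, 10 nM or 1 uM. Glyphosate, a herbicide, was given at 10 ug/L, 1 mg/L or 0.1 g/L, and its commercial formulation Roundup at 10 ug/L. The same 5 control libraries served both the PCB 126 and the herbicide comparisons, so the comparisons with the control share them. The labels do not say whether the libraries of a group came from separate cultures, so p-values measure the spread between these libraries only.

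Cytosolic sulfotransferases move a sulfonate group from the donor PAPS to hydroxyl or amino groups of hormones, bile acids, drugs and dietary compounds, which makes most of them more soluble in water. PAPS is made from inorganic sulfate and ATP by the bifunctional synthases PAPSS1 and PAPSS2. In the adult liver SULT2A1 acts on dehydroepiandrosterone and bile acids, SULT1A1 on small phenols such as paracetamol, SULT1B1 on thyroid hormones and SULT1E1 on oestrogens, while the SULT1C enzymes are better known from fetal tissues. Sulfonation can also activate some procarcinogens.

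SULT1A1 and SULT1A2 lie side by side on chromosome 16 and are near-identical, which bears on every value given for them. On GRCh38 the named SULT1A1 transcripts spanned chr16:28605196-28623625 and those of SULT1A2 chr16:28591943-28597109, both on the minus strand. The coding sequences of ENST00000314752 (SULT1A1) and ENST00000335715 (SULT1A2), both 885 bases long, differed at 28 bases and were 96.8% identical. Of their 811 windows of 75 bases, the read length of the study, 122 held no difference and 503 held at most 2. The window below is the first of those with the most differences, 9 bases, shown to give the strongest contrast a single read could meet. It covers coding bases 436 to 510 over an exon junction, in SULT1A1 at chr16:28606845-28607014 and in SULT1A2 at chr16:28593336-28593505 (GRCh38, minus strand), and capitals mark the bases that differ between both genes.
SULT1A1: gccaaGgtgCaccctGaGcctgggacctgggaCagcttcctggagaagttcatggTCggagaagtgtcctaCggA
SULT1A2: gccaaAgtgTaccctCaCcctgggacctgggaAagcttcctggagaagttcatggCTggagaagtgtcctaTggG
Over the whole SULT1A1 transcript, 122 of 1495 windows (8.16%) also occurred in SULT1A2 and 173 (11.6%) in SULT1A3 and in SULT1A4, other phenol sulfotransferase genes. SULT1A2 shared 122 of its 957 windows (12.7%) with SULT1A1. These shares describe reference transcripts, and that of ENST00000314752 is longer than the 1162 bases listed with its FPKM values. None of the other members shared a 75-base window with another member in the transcripts compared, so the division of reads is uncertain for SULT1A1 and SULT1A2 among the family. The study sequenced paired ends, and these counts take single windows. How many read pairs could not be told apart was not measured.

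The other members were spread over 3 chromosomes. SULT1B1 (chr4:69721162-69787961) and SULT1E1 (chr4:69810780-69860152) lay on the minus strand of chromosome 4, SULT1C2 (chr2:108288639-108309915) and SULT1C4 (chr2:108377911-108388057) on the plus strand of chromosome 2, and SULT2A1 (chr19:47870466-47886397) on the minus strand of chromosome 19, all on GRCh38 as spanned by their listed transcripts.

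SULT2A1 and SULT1A1 made up most of the sulfotransferase RNA of untreated cells, SULT1C2 stood well below them, and SULT1E1 and SULT1C4 were close to 0. In the 5 control libraries SULT2A1 measured 24.4, 18.6, 20.6, 20.5 and 13.7 FPKM in replicates 1 to 5, a mean of 19.5 ± 3.88 (SD, n = 5). SULT1A1 measured 19.1, 18.8, 16.7, 17.1 and 12.5 FPKM in the same libraries, a mean of 16.8 ± 2.67 (SD, n = 5), and accounted for 41.4% ± 2.50 of the FPKM of all 7 genes. The ranges of both genes overlapped, and SULT2A1 was above SULT1A1 in 4 of 5 control libraries and 28 of 40 libraries overall. SULT1C2 measured 5.62, 3.85, 2.15, 2.75 and 1.52 FPKM, a mean of 3.18 ± 1.61 (SD, n = 5) and 7.42% of the family. It was below SULT1A1 and above the named SULT1A2 transcripts in 40 of 40 libraries.

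The remaining members were expressed at under 1 FPKM on average. SULT1A2 averaged 0.765 ± 0.405 FPKM and SULT1B1 0.616 ± 0.184 FPKM in control cells (SD, n = 5), or 1.88% and 1.47% of the family. Their order was not settled, since SULT1A2 was the higher of both in 3 of 5 control libraries and in 23 of 40 libraries. SULT1E1 averaged 0.0490 FPKM and SULT1C4 0.0181 FPKM in control cells, and each was listed at 0 in 3 of the 5 control libraries. Over all libraries SULT1E1 was listed at 0 in 8 of 40 and SULT1C4 in 12 of 40, and neither exceeded 0.222 FPKM in any library. Within-library differences between neighbours in this order gave exact sign-flip permutation p = 0.125 for SULT2A1 and SULT1A1, 0.625 for SULT1A2 and SULT1B1 and 0.5 for SULT1E1 and SULT1C4. The other 3 neighbouring pairs gave 0.0625, the smallest value that 5 libraries allow in this two-sided test, so the order is a description. Among the 37703 genes above 0 in control cells, 1854 had a higher mean FPKM than SULT2A1, 2207 than SULT1A1 and 8930 than SULT1C2.

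**Figure D1:**
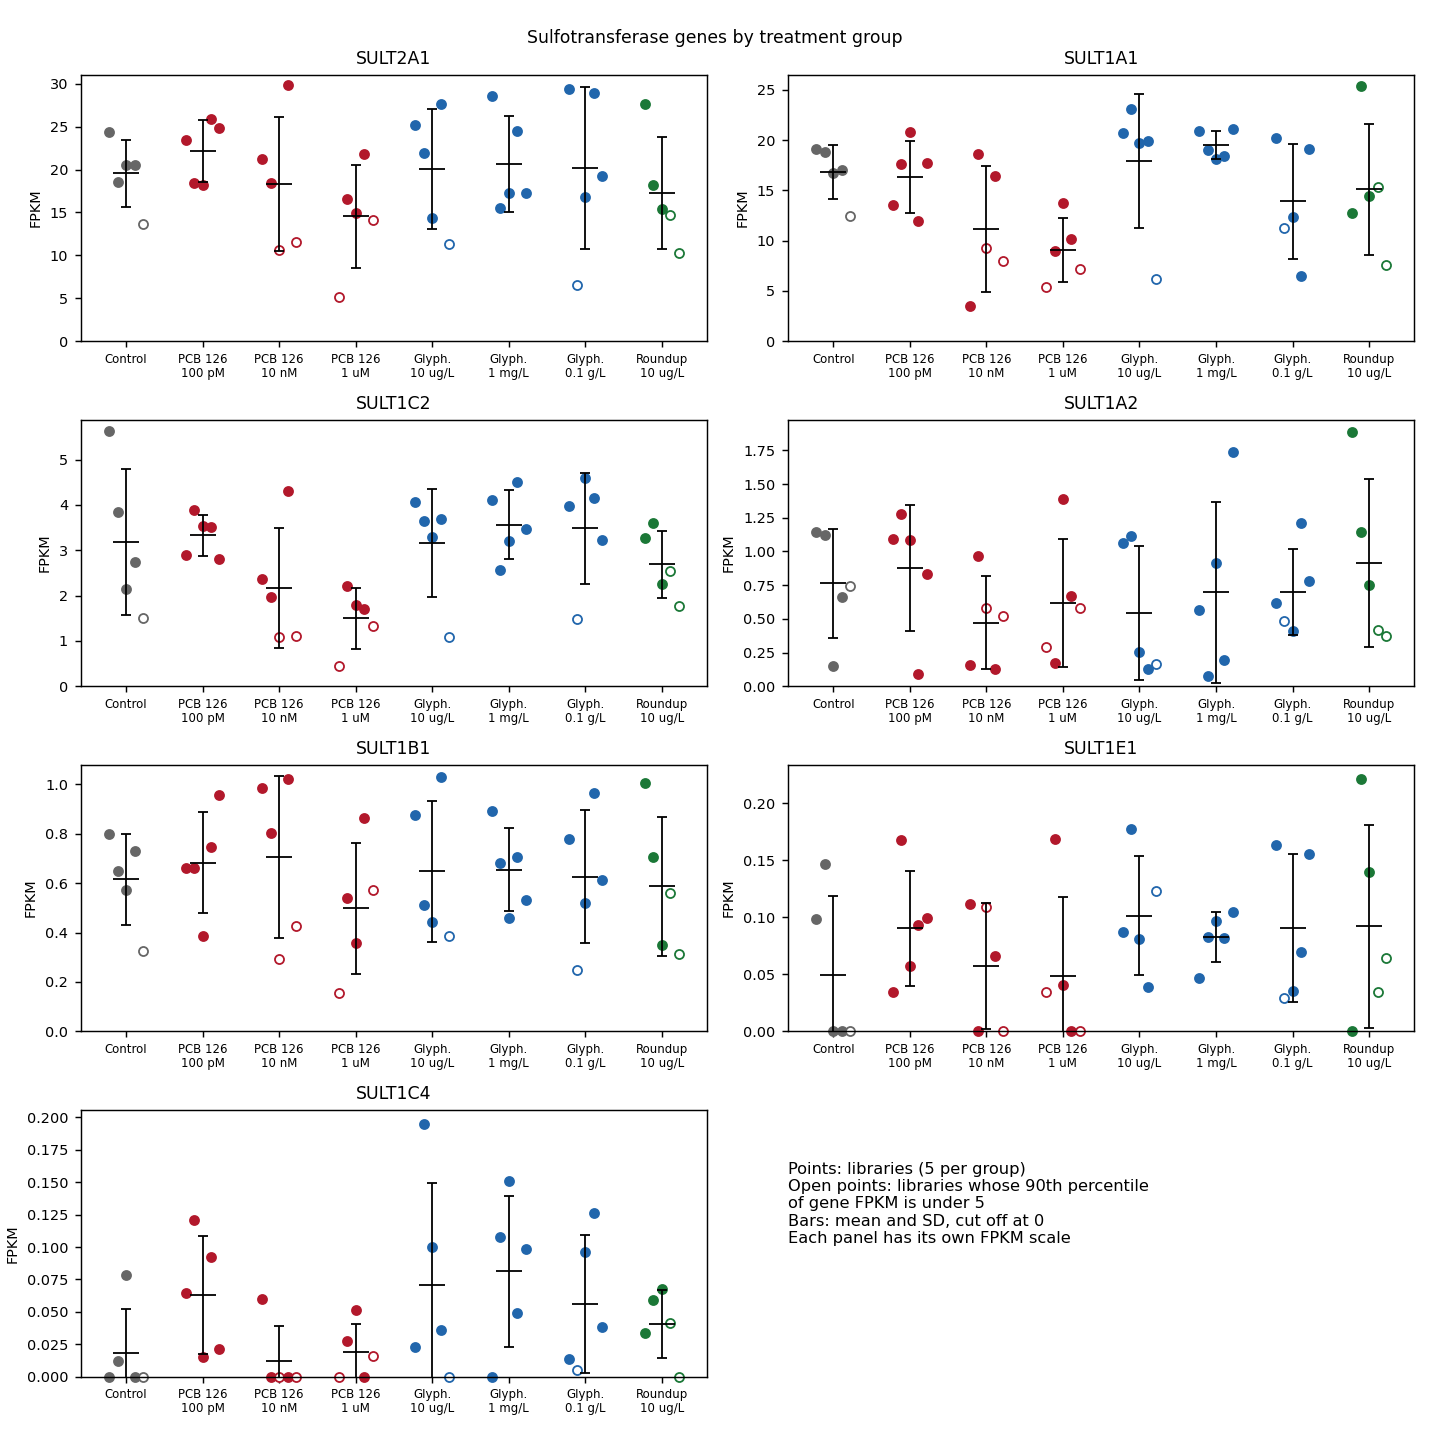
FPKM of the 7 sulfotransferase genes in each of the 40 libraries by treatment group, with the group mean and SD (cut off at 0) and a separate linear FPKM axis for each gene. Open points are the 9 libraries with a low 90th percentile of gene FPKM, and in the SULT1A1 panel 4 of the 5 libraries at 1 uM PCB 126 sit below all controls.

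Each expressed member was carried mainly by one or a few transcripts. ENST00000314752, a protein-coding transcript, held 79.2% of SULT1A1 (mean 11.9 FPKM over 40 libraries) and ENST00000569554 held 10.9% (1.64 FPKM). SULT2A1 had a single transcript, ENST00000222002. SULT1C2 was divided between ENST00000251481, with 64.1%, and ENST00000495441, a retained-intron transcript, with 21.5%. SULT1B1 was almost wholly ENST00000310613 (99.2%). The small SULT1A2 signal was scattered over ENST00000533150 (36.5%), ENST00000335715 (28.0%), ENST00000534108 (19.9%), which is annotated for nonsense-mediated decay, and ENST00000395630 (12.2%). SULT1E1 came mainly from ENST00000226444 (88.7%, with 11.3% in ENST00000506796) and SULT1C4 from ENST00000272452 (76.8%, with 23.2% in ENST00000494122).

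A transcript assembled from these reads at the SULT1A1 locus carried no gene name, and it held much of the signal of that locus in a few libraries. It ran over chr16:28605667-28610037 on the minus strand in 8 exons and 1171 bases, overlapping ENST00000314752, and was not counted in the values of SULT1A1. It was listed at 0 in 11 of 40 libraries and reached no more than 2.16 FPKM in the controls. It exceeded 5 FPKM in 4 libraries, measuring 11.3 FPKM (48.6% of the locus) in replicate 4 of PCB 126 100 pM, 9.28 (72.8%) and 8.73 (34.7%) in replicates 1 and 4 of 10 nM, and 18.2 (73.6%) in replicate 4 of glyphosate 0.1 g/L. Replicate 1 of 10 nM and replicate 4 of glyphosate 0.1 g/L were the lowest of their groups by gene name, at 3.46 and 6.52 FPKM, and the summed locus there came to 12.7 and 24.7 FPKM. At 1 uM PCB 126 the transcript reached 0.862 FPKM at most, so the sum over the locus hardly differed from the named gene. How reads were divided between both transcripts was not tested.

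The gene name also left out most of the signal at the SULT1A2 locus. Its 4 assembled transcripts without a gene name held 66.1% of the locus over the controls and 54.7% over all 40 libraries, so the locus averaged 2.26 FPKM in the controls where the named gene averaged 0.765. The summed locus measured 2.48, 1.12, 3.81, 3.00 and 0.885 FPKM in control replicates 1 to 5. In replicates 3 and 4 it was above SULT1C2, which was the higher of both in 3 of 5 controls and 37 of 40 libraries, and it was above SULT1B1 in 39 of 40.

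**Figure D2:**
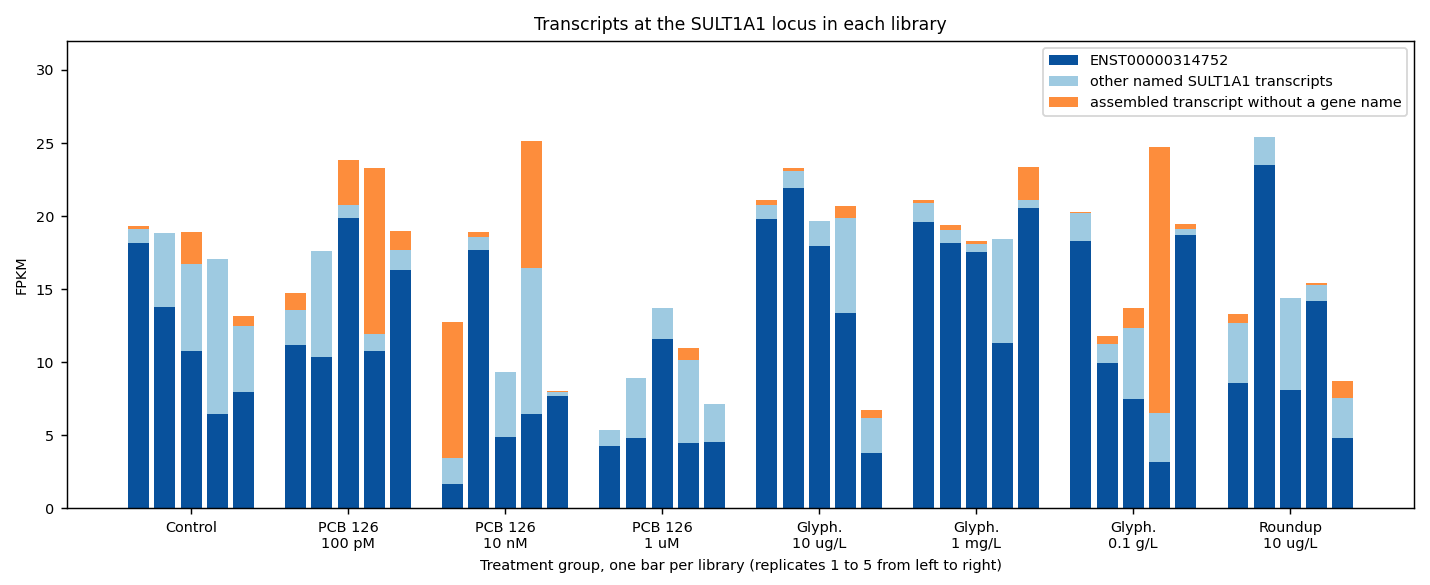
Stacked bars of FPKM at the SULT1A1 locus, one bar per library in 8 groups, divided into ENST00000314752, the other named SULT1A1 transcripts and the assembled transcript without a gene name. The unnamed transcript is largest in replicate 4 of glyphosate 0.1 g/L (18.2 FPKM) and nearly absent at 1 uM PCB 126.

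Genes known as targets of the aryl hydrocarbon receptor served as a check of the PCB 126 labels. CYP1A1 ranged from 0 to 7.69 FPKM in the controls, from 1.09 to 319 FPKM at 100 pM and from 85.2 to 389 FPKM at 1 uM. At 1 uM this was a difference of 6.61 on the log2(FPKM + 1) scale (adjusted p = 7.44e-05, limma), and CYP1A2, CYP1B1 and TIPARP were also called at 10 nM and 1 uM, whereas AHRR was not. CYP1A1 reached no more than 6.48 FPKM in the herbicide groups. Libraries differed in the spread of their FPKM values. In 9 of 40 libraries the 90th percentile of gene FPKM lay between 3.27 and 4.60, against 5.52 to 8.24 in the other 31, and these 9 were 1 control, 2 of 10 nM, 2 of 1 uM, 1 each of glyphosate 10 ug/L and 0.1 g/L, and 2 of Roundup. SULT2A1 had a median of 11.4 FPKM in these 9 libraries and 20.6 in the others, SULT1A1 7.95 and 18.1, and SULT1C2 1.32 and 3.46. Over the 40 libraries, Pearson's r between log2(FPKM + 1) and the log2 90th percentile, which come from the same library, was 0.79 for SULT2A1, 0.58 for SULT1A1 and 0.84 for SULT1C2. Its part in the results below was not tested beyond the values without these libraries.

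**Figure D3:**
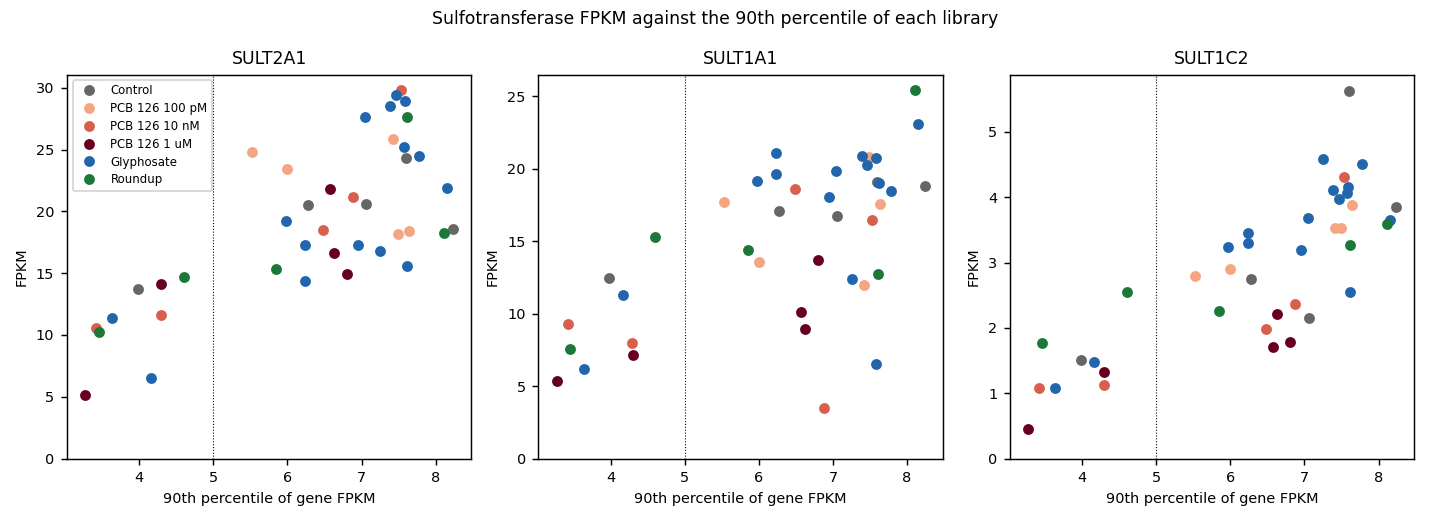
FPKM of SULT2A1, SULT1A1 and SULT1C2 against the 90th percentile of gene FPKM in the same library, one point per library coloured by treatment, with a dotted line at 5. The 9 libraries left of the line hold SULT2A1 at 5.17 to 14.7 FPKM, SULT1A1 at 5.34 to 15.3 FPKM and SULT1C2 at 0.446 to 2.55 FPKM.

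The question of the PCB 126 series was how RNA levels shifted with concentration. No sulfotransferase passed the adjusted threshold against the control at any concentration, although SULT1A1 and SULT1C2 had lower mean levels at 1 uM. SULT1A1 measured 5.34, 8.94, 13.7, 10.1 and 7.15 FPKM in replicates 1 to 5 at 1 uM, a mean of 9.06 ± 3.17 (SD, n = 5) or 53.8% of the control mean. Of these libraries 4 lay below every control and 1 lay within the control range. On the log2(FPKM + 1) scale the difference was -0.87 (SE 0.319, 95% interval -1.53 to -0.21), with adjusted p = 0.200 in limma over all genes and p = 0.0159 in a two-sided exact permutation test of this gene alone, where the smallest possible value is 0.00794. Without the low-percentile libraries it was -0.68 (adjusted p = 0.384).

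SULT1C2 measured 0.446, 2.22, 1.79, 1.71 and 1.32 FPKM at 1 uM, a mean of 1.5 ± 0.669 (SD, n = 5) or 47.2% of the control mean. Both lowest values lay below every control and the other 3 overlapped with them. The difference was -0.71 (SE 0.292, 95% interval -1.31 to -0.11), with adjusted p = 0.266 in limma and exact permutation p = 0.0556. It was -0.34 with quantile normalization, -0.41 in a model with a library covariate and -1.05 with 0.1 in place of 1 added to FPKM. That covariate was the sum of the library's log2(FPKM + 1) values below their 75th percentile over the tested genes, not its read total. With 1 library left out the difference ranged from -0.87 to -0.52. SULT2A1 measured 5.17, 16.6, 14.9, 21.8 and 14.2 FPKM, a mean of 14.5 ± 6.04 (SD, n = 5) or 74.4% of the control mean. A single library, replicate 1, lay below the control range, and the difference was -0.50 (SE 0.310, 95% interval -1.14 to 0.14, adjusted p = 0.483, limma). With 1 library left out it ranged from -0.67, without replicate 4 of 1 uM, to -0.20, without replicate 1 of 1 uM. It was also -0.20 in the model with the library covariate, and -0.24 without the low-percentile libraries. For none of the 3 genes did the libraries at 1 uM lie wholly apart from the controls. That share was not computed over all genes, so it cannot be read as a result about the members.

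Read against all genes, these differences were in the lower part of the distribution. The median gene differed by -0.26 at 1 uM, so SULT1A1 lay -0.61 and SULT1C2 -0.45 from it, and 5.50%, 10.2% and 21.6% of the 9755 genes tested had a lower value than SULT1A1, SULT1C2 and SULT2A1. Scaling each library by its 75th percentile moved that median to -0.12 and quantile normalization to -0.01. The 3 genes were the members with a variance of FPKM above 1 and hence the ones tested across all genes. At an unadjusted p under 0.05, 2 of these 3 were lower at 1 uM, where 11.3% of all genes tested were so, and 0 of 3 passed the adjusted threshold, which 1.87% of genes passed.

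At 10 nM the libraries were widely scattered. SULT1A1 measured 3.46, 18.6, 9.30, 16.4 and 7.95 FPKM, a mean of 11.1 ± 6.25 (SD, n = 5) or 66.2% of the control mean, with 3 libraries below every control. The difference was -0.72 (adjusted p = 0.865, limma; exact permutation p = 0.0794), and with the unnamed transcript added it was -0.32 and 85.0% of the control mean (exact permutation p = 0.302). SULT1C2 ranged from 1.08 to 4.31 FPKM (difference -0.40, adjusted p = 0.865) and SULT2A1 averaged 18.3 ± 7.84 FPKM (difference -0.16). The sign for SULT2A1 turned to 0.11 without the low-percentile libraries, 0.06 with the library covariate in the model and 0.03 with quantile normalization. Here 1 of 3 tested members was lower at an unadjusted p under 0.05, against 3.75% of all genes, and 0 of 3 passed the adjusted threshold, against 0.205%.

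At 100 pM, the lowest concentration, the means stayed near the control. The differences were -0.05 for SULT1A1, which ranged from 12 to 20.8 FPKM, 0.13 for SULT1C2 at 3.33 ± 0.460 FPKM and 0.18 for SULT2A1 at 22.1 ± 3.63 FPKM (adjusted p = 1 for each, limma). None of the 3 passed at the unadjusted 0.05 level (1.19% of all genes did) or the adjusted threshold (0% did).

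Taking the 4 groups as dose steps, SULT1A1 changed by -0.33 per step (SE 0.0991, adjusted p = 0.0617, limma), SULT1C2 by -0.27 (adjusted p = 0.107) and SULT2A1 by -0.18 (adjusted p = 0.287), while the median gene changed by -0.10. Downward slopes at an unadjusted p under 0.05 were held by 2 of 3 members and 17.5% of all genes, and 0 of 3 members passed the adjusted threshold, which 3.78% of genes did. The slope of SULT1A1 lay close to that threshold and crossed it when the unnamed transcript was added (-0.32, adjusted p = 0.0491). With runs of consecutive library numbers as a block, which the labels do not tie to a culture, that slope also crossed the threshold (adjusted p = 0.0311, limma). It also crossed it when 1 of 5 single libraries was left out, namely control replicate 5, replicates 1, 2 and 4 of 10 nM and replicate 3 of 1 uM, with adjusted p down to 0.0283 over all libraries left out in turn, and that of SULT1C2 crossed it without control replicate 5 (-0.32, adjusted p = 0.0246). In the F-test across the PCB 126 groups, 2 of 3 members were under an unadjusted 0.05 (9.56% of genes) and 0 of 3 passed after adjustment (1.39% of genes), with adjusted p = 0.341, 0.443 and 0.793 for SULT1A1, SULT1C2 and SULT2A1.

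The weakly expressed members did not separate by PCB 126. At 1 uM SULT1A2 ranged from 0.171 to 1.39 FPKM, 81.2% of the control mean (exact permutation p = 0.643), and with the unnamed transcripts of its locus added it averaged 1.02 FPKM against 2.26 in the controls, 45.0% (difference -0.66, exact permutation p = 0.0873). SULT1B1 ranged from 0.154 to 0.863 FPKM, 80.8% of the control mean (exact permutation p = 0.429). SULT1E1 and SULT1C4 remained at or near 0 FPKM in both groups and their levels cannot be compared at this signal. Over the 7 members and 7 comparisons with the control, 49 exact tests were run, unadjusted. SULT1A1 at 1 uM was the 1 test with p under 0.05, and in none did the 5 treated libraries lie wholly apart from the 5 controls. Neither share was computed over all genes, so these counts cannot be read as a result about the members.

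**Figure D4:**
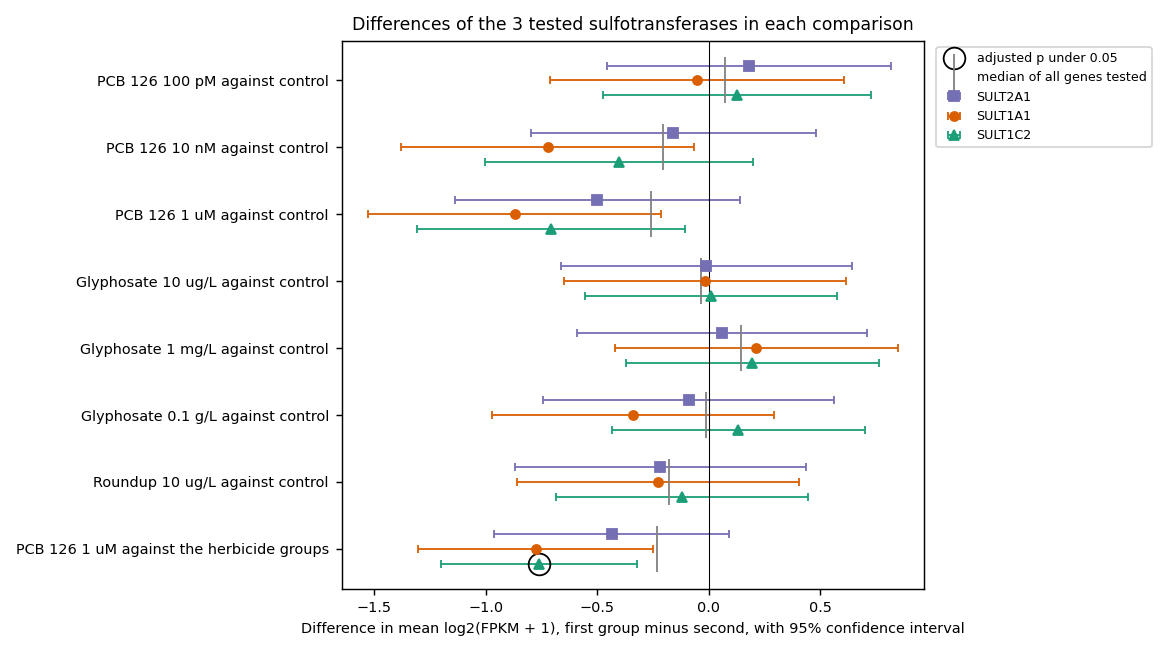
Differences in mean log2(FPKM + 1) with 95% confidence intervals for SULT2A1, SULT1A1 and SULT1C2 in 8 comparisons (rows), with a grey tick at the median of all genes tested and a ring where the adjusted p was under 0.05. The ring marks SULT1C2 between 1 uM PCB 126 and the herbicide groups (-0.76), and against the control the intervals of SULT1A1 at 10 nM and 1 uM and of SULT1C2 at 1 uM lie below 0 while the others span it.

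The herbicides were compared with the same controls, and no member passed the threshold in any of them. SULT1A1 averaged 17.9 ± 6.70 FPKM at 10 ug/L glyphosate, 19.5 ± 1.40 at 1 mg/L, 13.9 ± 5.73 at 0.1 g/L and 15.1 ± 6.51 with Roundup (SD, n = 5). The group at 1 mg/L was the tightest, from 18.1 to 21.1 FPKM, and the group at 0.1 g/L ranged from 6.52 to 20.2 FPKM. Against the control the differences of SULT1A1 were -0.02, 0.21, -0.34 and -0.23 in that order, and the last 2 intervals reached from -0.97 to 0.29 and from -0.86 to 0.40. With the unnamed transcript added, the difference at 0.1 g/L was 0.01.

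SULT1C2 averaged 3.15, 3.57, 3.48 and 2.69 FPKM in these groups, with differences of 0.01, 0.20, 0.13 and -0.12. SULT2A1 averaged 20.1, 20.6, 20.2 and 17.2 FPKM, with differences of -0.01, 0.06, -0.09 and -0.22. All adjusted p-values of the 3 members against the control were 0.90 or above. Of the 9533 genes tested, 0.997%, 1.31%, 0.881% and 1.73% had an unadjusted p under 0.05 at 10 ug/L, 1 mg/L and 0.1 g/L glyphosate and with Roundup, 0% passed the adjusted threshold in each, and 0 of 3 members did either. In the F-test across the herbicide groups 0 of 3 members were under 0.05 before adjustment (1.36% of genes) or after (0% of genes). An adjusted p above the threshold does not show equal levels: the interval of SULT1A1 at 0.1 g/L reached past the -0.87 measured at 1 uM PCB 126.

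The top PCB 126 concentration was also set against the 4 herbicide groups directly, over the 40 libraries of both tables, which needs no control. SULT1C2 was lower at 1 uM PCB 126. Its libraries there reached 2.22 FPKM at most, and the herbicide groups ranged from 1.08 to 4.06 FPKM at 10 ug/L glyphosate, from 2.56 to 4.51 at 1 mg/L, from 1.48 to 4.59 at 0.1 g/L and from 1.76 to 3.59 with Roundup. The ranges met in the low libraries of 3 groups and were apart at 1 mg/L glyphosate. The difference in mean log2(FPKM + 1) was -0.76 (SE 0.218, 95% interval -1.20 to -0.32, adjusted p = 0.0210, limma).

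In this comparison 1 of the 3 members tested passed, and 8.50% of the 9260 genes tested did, 7.25% in the lower direction, with a median gene at -0.23. The call of SULT1C2 was lost without replicate 1 of 1 uM (-0.58, adjusted p = 0.207) or replicate 5 (-0.75, adjusted p = 0.0630), the libraries of that group with a low 90th percentile, and was kept when any 1 of the other 38 libraries was left out. Without all 9 low-percentile libraries the difference was -0.64 (adjusted p = 0.0125). SULT1A1 differed by a similar amount, -0.78 (SE 0.261), but with adjusted p = 0.0552, and by -0.89 with the unnamed transcript added (adjusted p = 0.00994). SULT2A1 differed by -0.44 (adjusted p = 0.300). The share of genes below each was 7.48% for SULT1C2, 7.04% for SULT1A1 and 25.5% for SULT2A1.

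Ratios within a library take out what scales all genes alike. The log2 ratio of SULT1C2 to SULT2A1 averaged -2.74 in the controls and -3.32 at 1 uM PCB 126, a difference of -0.57 (exact permutation p = 0.0794). That of SULT1A1 to SULT2A1 differed by -0.41 at 1 uM (exact permutation p = 0.159) and by -0.63 at 10 nM (exact permutation p = 0.183), or by -0.18 with the unnamed transcript added (exact permutation p = 0.278). Neither ratio differed beyond the spread between libraries.

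At the level of transcripts, which is the unit of the deposited tables, 4 transcripts of the members passed the variance filter and none was called. They belonged to SULT1A1 and SULT2A1, so no SULT1C2 transcript was tested in this fit. With no filter, 0 of 28 member transcripts were called between 1 uM PCB 126 and the herbicide groups (smallest adjusted p = 0.175, limma). There 1277 of 187902 transcripts were called. The main SULT1A1 transcript ENST00000314752 averaged 11.4 ± 4.69 FPKM in the controls and 5.93 ± 3.18 FPKM at 1 uM PCB 126, and differed by -0.85 (adjusted p = 0.543, limma), where 0.552% of the 21181 transcripts tested were called. Against the herbicide groups it differed by -1.04 (adjusted p = 0.116), where 2.85% of 17883 transcripts were called.

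Other genes of sulfate metabolism were read from a fixed list. It held genes of sulfate uptake, of PAPS synthesis, transport and breakdown, and of sulfite oxidation. Sulfatases with their modifying factors and protein tyrosine sulfotransferases were also on this list. Of its 19 genes 15 were tested, and at 1 uM PCB 126 against the control 0 of 15 were called, beside 1.87% of all genes. Their median difference was -0.33 beside -0.26 for all genes, with a negative sign in 11. PAPSS2, the more abundant PAPS synthase, averaged 20.0 ± 6.47 FPKM in the controls and 10.4 ± 5.07 at 1 uM (SD, n = 5; difference -0.95, adjusted p = 0.160, limma), and PAPSS1 12.9 ± 4.12 and 9.20 ± 2.27 (difference -0.42, adjusted p = 0.50). Against the herbicide groups 2 of 15 were called at 1 uM, beside 8.50% of all genes: SLC26A2, a sulfate transporter, was higher (1.04, SE 0.198, adjusted p = 0.000419), and SULF1, an extracellular heparan sulfate endosulfatase, was lower (-0.76, adjusted p = 0.0257). SLC26A2 also rose with PCB 126 dose, the 1 of 15 called in the trend beside 3.78% of all genes, by 0.34 per step (adjusted p = 0.0203), from a mean of 4.21 FPKM in the controls to 9.38 at 1 uM. In the comparisons of single herbicide groups with the control none of the 15 was called, beside 0% of all genes.

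Transcription factors known to act on sulfotransferase genes, or to shape the hepatocyte state, were taken from a list of 15. Of these 10 were tested and 3 were called at 1 uM PCB 126 against the control, beside 1.87% of all genes. Differences are on the log2(FPKM + 1) scale. NR1H4, the bile acid receptor FXR, fell from a mean of 8.38 to 2.99 FPKM (-1.19, adjusted p = 0.0348, limma), FOXA1, a hepatic pioneer factor, fell from 7.70 to 2.88 FPKM (-1.21, adjusted p = 0.0213), and VDR, the vitamin D receptor, rose from 1.90 to 4.78 FPKM (1.03, adjusted p = 0.0436). The same 3 were called in the dose trend, beside 3.78% of all genes. Against the herbicide groups 3 of 9 tested, NR1H4 (-1.20), FOXA1 (-1.24) and CEBPA (-0.75), were lower at 1 uM, beside 7.25% of all genes. Against the control, HNF4A (0.41, adjusted p = 0.526) and PPARA (0.35, adjusted p = 0.585) were not called.

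Some markers of cell identity also differed at 1 uM PCB 126. Of 12 hepatocyte markers tested 3 were lower (APOA2, TTR and FGB) and 1 higher (TAT), beside 1.87% of all genes called. Their median difference was -0.99 beside -0.26 for all genes, with a negative sign in 9 of 12. In the controls ALB and SERPINA1 (2545 to 6498 FPKM) were the largest parts of their sum. Their summed FPKM ranged from 14485 to 21125 in the controls and from 5675 to 14267 at 1 uM. The summed biliary markers ranged from 281 to 541 and from 170 to 293 FPKM, the mesenchymal markers from 41 to 91.8 and from 50.8 to 190 FPKM, and the macrophage and blood markers from 2.18 to 7.21 and from 2.54 to 4.46 FPKM. Gene by gene, 0 of 5 biliary markers tested were called, with a median difference of -0.68. Of 6 mesenchymal markers tested 0 were called higher and 1 lower, with a median difference of -0.05, so their higher sum was not shared by most of them. In the controls ALB stood at 9144 to 12989 FPKM, EPCAM and COL1A2 were each listed at 0 in 4 of 5 libraries, HBB in 3 and PTPRC in 2. In such bulk samples fewer cells of a type and less RNA per cell cannot be told apart, and the part of these shifts in the sulfotransferase values was not tested.

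The members also differed in the genes they resembled over the 40 libraries. Among 9259 genes, Pearson's r of log2(FPKM + 1), which shares library and scale, was highest with AQP9 (0.94), ABAT (0.93) and C4BPB (0.93) for SULT2A1, and with PELI1 (0.94), DENND2D (0.93) and C11orf54 (0.93) for SULT1C2. The median over all genes was 0.64 and 0.68. By gene name, SULT1A1 resembled other genes less, with BMP2 (0.79), ZNF219 (0.78) and HERC4 (0.76) at the top and a median of 0.47. All r values given for SULT1A1 leave out the unnamed transcript of its locus, and likeness with it added was not tested. Adding that transcript took the SD of the log2 ratio of SULT1A1 to SULT2A1 from 1.05 to 0.301 at 10 nM. At 0.1 g/L glyphosate that SD went from 1.07 to 0.534, while at 1 mg/L it rose from 0.363 to 0.403. Between the members r was 0.79 for SULT2A1 and SULT1C2, 0.64 for SULT1A1 and SULT1C2 and 0.44 for SULT1A1 and SULT2A1.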

How the data were processed

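Total RNA of 40 HepaRG libraries was depleted of ribosomal RNA and sequenced as directional 75-base paired-end reads. The authors aligned reads to GRCh38 with HISAT2 and quantified transcripts with StringTie. The deposited values are FPKM per transcript in 2 tables of 20 and 25 libraries, which share the 5 controls. The FPKM tables hold no read counts, so no counting interval is given. Read totals from the study were not used here. FPKM sums per library ranged from 255292 to 513059. In some deposited columns, treated as scores because they hold FPKM slightly below 0, the negative values (4 and 6) were set to 0. FPKM were summed per gene name; 35782 transcripts without a gene name were left out. Groups came from the labels.

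Genes with a variance of FPKM above 1 were tested with limma 3.58.1 (R 4.3.3) on log2(FPKM + 1), without covariates, with Benjamini-Hochberg adjustment over all genes and a threshold of 0.05. Differences on this scale understate changes of low genes. Single members were compared by two-sided exact permutation tests. All 7 members, the 5 check genes, transcripts with 10% or more of a member and the genes of each list that passed were named. PAPSS1, PAPSS2, HNF4A and PPARA were named after their values were seen. Likeness was given for members with a mean of at least 1 FPKM, as the 3 genes with the highest r among genes past the variance filter in both tables. The members and lists were chosen with earlier results of these data known. The model was tested on simulated data. Alternatives covered the pseudocount, the filter, scaling, weights, a block and left-out libraries. Sequence windows were read from the reference transcripts of GRCh38.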

Additional observations from a re-analysis of the deposited data

Results flagged for a closer look

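SULT1A1 in replicate 5 of glyphosate 10 ug/L was 6.17 FPKM, far from the other 4 libraries of its group at 19.7 to 23.1 FPKM. SULT1C2 in the same library was 1.08 FPKM, with the others at 3.30 to 4.06 FPKM. That library is one of the 9 with a low 90th percentile of gene FPKM. Among the members near 0, SULT1C4 was 0.0785 FPKM in control replicate 3 (others 0 to 0.0121) and 0.0602 FPKM in replicate 1 of PCB 126 10 nM (others 0), and SULT1E1 was 0.168 FPKM in replicate 2 of 1 uM (others 0 to 0.0407). These were 5 of 56 groups of 5 libraries examined, and chance sets a library apart in about 1 of 20 groups.

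SULT1C2 differed between 1 uM PCB 126 and the herbicide groups by -0.76 on the log2(FPKM + 1) scale (adjusted p = 0.0210, limma), a direct test of the difference between treatments.

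The assembled SULT1A1 transcript without a gene name, which enters none of the gene values, exceeded the highest control (2.16 FPKM) in 6 libraries. It measured 3.04 and 11.3 FPKM in replicates 3 and 4 of PCB 126 100 pM, 9.28 and 8.73 FPKM in replicates 1 and 4 of 10 nM, 2.25 FPKM in replicate 5 of glyphosate 1 mg/L and 18.2 FPKM in replicate 4 of glyphosate 0.1 g/L.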

How the results depend on the processing

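No member passed the adjusted threshold against the control at any single PCB 126 concentration under any alternative run. Values of SULT1A1 against the control at 10 ug/L glyphosate turned from -0.02 to 0.21 without the low-percentile libraries (exact permutation p = 0.0286) and to 0.30 without Glyphosate 10 ug/L replicate 5 (exact permutation p = 0.0238), and ranged from -0.13 to 0.30 with 1 library left out. In 10 other cases the exact test of a single member fell under 0.05 in an alternative but not as reported, in the same direction. For the dose trend, 1 member was called with 75th percentile scaling (SULT1C2), array weights (SULT1C2), the block (SULT1A1) and the summed locus (SULT1A1), against 0 in the reported fit. Of the 9755 genes tested there, 75th percentile scaling called 841, array weights 1301 and the block 639. For 1 uM against the herbicide groups, 2 members (SULT1A1 and SULT1C2) were called with 75th percentile scaling, the block and the summed locus, and 1 transcript of a member with that scaling. In this comparison the scaling called 2929 of 9260 genes and 2179 of 17883 transcripts, and the block called 1278 genes. SULT1C2 was called there in 10 of 10 other settings, with differences of -1.13 to -0.33 and adjusted p of 0.000301 to 0.0428. Array weights called 3 members across the herbicide groups, where they called 5527 of the 9533 genes tested.

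The number of genes called moved more. At 1 uM against the control it was 592 with 75th percentile scaling, 1085 with quantile normalization, 830 in an ordinary model with the library covariate, 946 with array weights, 357 with the block and 520 without the low-percentile libraries, against 182. At 10 nM the same settings gave 69, 184, 114, 239, 37 and 56 against 20, for the dose trend 841, 1242, 883, 1301, 639 and 587 against 369, and across the PCB 126 groups 483, 714, 443, 915, 270 and 266 (90 with no filter) against 136. For 1 uM against the herbicide groups, no filter gave 1261, 75th percentile scaling 2929, quantile normalization 2548, the library covariate 2397, array weights 1565 and the block 1278, against 787. Calls higher and lower at 1 uM against the control were 63 and 119, 247 and 345 with 75th percentile scaling, and 532 and 553 with quantile normalization. Against the herbicide groups they were 116 and 671, 392 and 2537, and 1136 and 1412. Against 0 in the reported fits, 1 gene was called at 0.1 g/L glyphosate with each scaling and array weights, 1 at 10 ug/L and 1 across the herbicide groups with no filter, and array weights called 3470 for Roundup and 5527 across the herbicide groups. Leaving out 1 library gave 118 to 366 genes at 1 uM, 15 to 35 at 10 nM, 223 to 1067 for the trend (0 to 2 members), 101 to 208 across the PCB 126 groups, 339 to 1139 against the herbicide groups (0 to 2 members), 0 to 2 at 1 mg/L glyphosate and 0 to 1 in the other herbicide comparisons. The cause was not tested.

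The block was the run of library numbers, which the labels do not tie to a culture, and under it the dose trend of SULT1A1 had adjusted p = 0.0311 in limma. Each run held a library of every group. Of same-run pairs, 7 of 30 in the PCB 126 table, 19 of 50 in the herbicide table and 41 of 140 in both had correlated deviations over 0.1. Not every pair did, so the numbers were not taken to pair the samples, though this criterion does not test for a block. The reported fits and exact tests leave such a block out. Replicate 5 of the control, 10 nM and 1 uM PCB 126, glyphosate 10 ug/L and Roundup, all from the same run, were among the low-percentile libraries. As a hint from the data, 14 of 20, 18 of 25 and 29 of 40 libraries correlated best on average with their own run, out of 5 runs. Quantile normalization gave no value for the 4 members outside the filter. With the unnamed transcripts of its locus added, SULT1A2 moved against the control to -0.41 at 100 pM PCB 126 and -0.43 with Roundup. For SULT1E1 and SULT1C4, near 0 FPKM, the tables hold no read counts from which to bound a difference.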

Other observations

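Other cytosolic sulfotransferase genes were low in these cells. SULT1A3, which acts on catecholamines, averaged 1.68 FPKM in the controls and 0.968 FPKM at 1 uM PCB 126, and SULT1A4, its near-identical copy, 0.882 and 0.314 FPKM. None of the 6 listed was tested in the PCB 126 table because of the variance filter. With SULT1A1, SULT1A2, SULT1A3 and SULT1A4 summed, a choice made after seeing the data that sets aside how reads were divided among these genes, the difference at 1 uM was -0.85 against the control (adjusted p = 0.219, limma) and -0.78 against the herbicide groups (adjusted p = 0.0564).

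The promoters of 5 of the 7 members, 300 bases from 250 before to 50 after the start, were matched in a table of promoters taken from RefSeq, on GRCh38.p14. SULT1A1 and SULT1A2 were not read. Read on both strands, GCGTG, the core letters bound by the aryl hydrocarbon receptor with ARNT, occurred in SULT2A1 alone among the 5, and in 36.5% of 35116 promoters. AGGTCA, a nuclear receptor half-site, occurred in SULT1C2 alone and in 13.8% of promoters. GGGCGG, a GC box, occurred in 0 of the 5 and in 45.0% of promoters. These are matches of letters in a fixed window.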
